A study of Mus musculus with 8 samples.

Results

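The genes described here carry the hypoxia response and angiogenic signalling of the mouse heart. They comprise 31 genes named by symbol under a rule with no threshold on their values, though with earlier results of these data known, and all 31 had a row among the 18215 genes in the tables. Polyadenylated RNA was sequenced from hearts of mice with a Carns transgene (TG, 4 libraries) and of Wild Type mice (WT, 4 libraries). The labels give no strain, age, time point or other treatment for either group, and they do not name the promoter or cell type that drives the transgene. Nor do they tie the libraries to separate animals, so p-values set the group difference against the spread between libraries, which may be technical. Carns1 encodes carnosine synthase, which makes histidyl dipeptides such as carnosine, and the series asks how these dipeptides influence the heart.

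Cells sense oxygen through hypoxia-inducible factors (HIFs). In oxygenated cells prolyl hydroxylases of the Egln family mark the HIF alpha subunits, and the von Hippel-Lindau protein then targets them for degradation. When oxygen falls the alpha subunits persist, pair with Arnt and switch on genes that bear a short core sequence, among them Vegfa, which acts on receptors of the blood vessel lining. Heart muscle extracts oxygen heavily from a dense capillary bed, so this pathway and the vascular growth factors are well studied there. Since HIF alpha proteins are controlled mainly through their stability, transcript levels of these subunits do not report HIF activity.

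Libraries held 6261193 to 7897629 expected counts. Values are counts per 1000000 (CPM) after scaling of the libraries by edgeR's TMM method, and levels of different genes are compared by the authors' FPKM, which is per length of transcript. Carns1 stood at 19071 to 24288 CPM in the TG libraries and at 44.5 to 73.3 CPM in the WT libraries, which matches the labels. Muscle marker genes (Myh6, Tnnt2, Tnni3, Actc1, Myl2 and Pln) summed to between 40704 and 46096 FPKM in every library, and all 8 endothelial markers (Pecam1, Cdh5, Cldn5, Tie1, Emcn, Egfl7, Esam and Robo4) were listed above 0, at a sum of 433 to 572 FPKM. By total count the libraries fall into a deeper class (TG replicates 1 and 3, WT replicates 1 and 2) and a shallower class (TG replicates 2 and 4, WT replicates 3 and 4). TG replicate 2 stood apart in fat marker genes (Adipoq, Plin1, Cidea, Lep, Car3 and Scd1), which summed to 735 FPKM there and to between 28.1 and 48.97 in the other TG libraries, and in atrial muscle genes (Myl4, Myl7, Nppa and Sln), at 1190.19 FPKM against 71.8 to 332 in the other 7 libraries.

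No gene of the hypoxia and angiogenesis set differed between TG and WT hearts past the threshold. Of the 31 genes 29 passed the filter on low counts, and 0 of these 29 had an adjusted p below 0.05 (edgeR quasi-likelihood test, Benjamini-Hochberg adjustment over 12670 genes), where 0.0158% of all tested genes did (0.00789% higher in TG hearts and 0.00789% lower). DESeq2 called 0 of the 29 as well, against 0.0882% of all genes, and limma called 0, where over all 12670 genes it called 1 on FPKM and 2 on weighted counts. An unadjusted p under 0.05 was found for 1 member, Ankrd37, which is 3.45% of the 29 against 3.49% of all tested genes. Log2 fold changes (TG relative to WT) were positive in 15 members and negative in 14, with a median of 0.00, where the median over all tested genes was -0.00. The median size of the log2 fold change was 0.08 among the 29 and 0.10 over all tested genes. For 27 of them the 95% interval of the fitted log2 fold change lay between -1 and 1, so it did not include a 2-fold difference in either direction, and 92.8% of all tested genes had such an interval. For 21 it also did not include a 1.5-fold difference, and the share of all tested genes for this narrower interval is not given here.

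**Figure D1:**
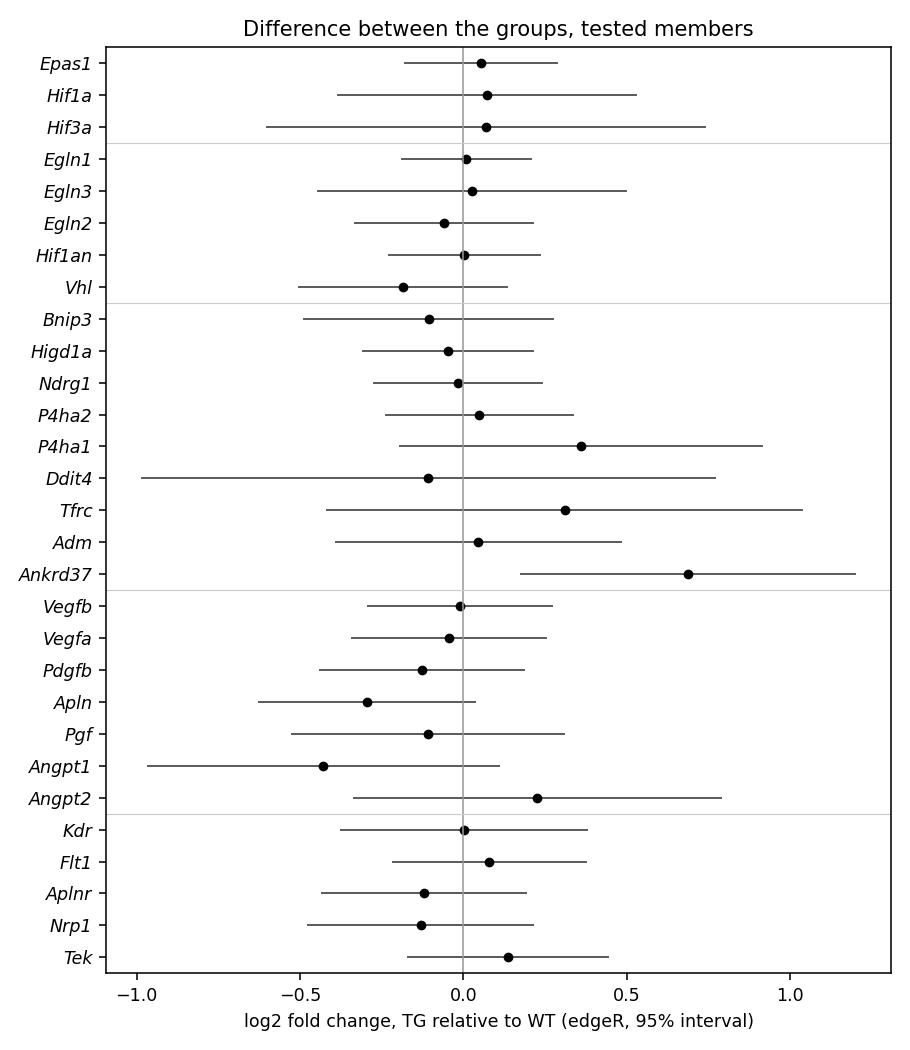
Log2 fold change of each of the 29 tested genes, TG relative to WT, with the 95% interval of the edgeR fit as a horizontal line and the genes grouped by role. Values run from -0.43 (Angpt1) to 0.69 (Ankrd37), and the line of Ankrd37 is the 1 that does not cross 0.

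The member with the smallest p was Ankrd37, an ankyrin repeat gene known as a direct target of HIF, and its promoter carries the HIF core sequence. Because Ankrd37 is the 1 member whose groups did not overlap, the 250 bases before its start are shown, beside those of Bnip3 and Egln3, which are also known HIF targets and whose groups overlapped. The sequences are from RefSeq, build GRCm38.p6, all on the minus strand, at chr8:45999851-46000100 for Ankrd37, chr7:138909507-138909756 for Bnip3 and chr12:54203875-54204124 for Egln3. They are written 5′ to 3′ up to the base before the start, and capitals mark matches to the core ACGTG or GCGTG on either strand (CACGT and CACGC on the strand shown), which overlap where capitals run on.
Ankrd37: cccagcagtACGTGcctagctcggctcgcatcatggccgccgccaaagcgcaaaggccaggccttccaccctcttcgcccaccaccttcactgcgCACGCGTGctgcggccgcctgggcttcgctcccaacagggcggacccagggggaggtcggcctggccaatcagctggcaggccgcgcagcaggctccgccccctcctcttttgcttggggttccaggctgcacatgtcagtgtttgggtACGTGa
Bnip3: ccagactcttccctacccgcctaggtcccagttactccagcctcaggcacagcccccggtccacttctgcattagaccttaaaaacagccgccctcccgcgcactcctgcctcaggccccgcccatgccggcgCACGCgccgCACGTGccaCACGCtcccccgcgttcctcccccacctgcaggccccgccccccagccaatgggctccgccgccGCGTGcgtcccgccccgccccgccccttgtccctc
Egln3: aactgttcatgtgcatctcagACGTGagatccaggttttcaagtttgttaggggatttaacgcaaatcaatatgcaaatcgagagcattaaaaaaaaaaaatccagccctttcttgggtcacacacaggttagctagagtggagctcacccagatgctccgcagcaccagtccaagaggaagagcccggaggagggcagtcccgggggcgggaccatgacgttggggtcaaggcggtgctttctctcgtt
Ankrd37 held 4 matches in this window, the nearest of which began 6 bases before the start. Bnip3 held 5 and Egln3 held 1. A match to these letters is common: 61.0% of the 10058 tested genes with an entry had at least 1 in a window of this length, and 21 of the 25 members with an entry did. Windows with 4 or more matches, as for Ankrd37, Bnip3 and Egln2, were less common, found for 5.67% of the tested genes with an entry. ACGTG or CACGT was present in 12 of those 25 members and in 25.0% of the tested genes. These matches describe the letters and were not measured as sites of binding.

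Ankrd37 stood at 4.70, 5.39, 5.28 and 5.20 CPM in TG replicates 1 to 4 and at 3.09, 3.41, 1.96 and 4.28 CPM in WT replicates 1 to 4. All 4 TG libraries lay above all 4 WT libraries, closely grouped in TG hearts and more spread in WT hearts. The mean was 5.14 ± 0.31 CPM in TG hearts and 3.18 ± 0.96 in WT hearts (SD, n = 4 each). Its log2 fold change was 0.69 (SE 0.24, 95% interval 0.18 to 1.20), with an unadjusted p of 0.0125 and an adjusted p of 0.9996 (edgeR, Benjamini-Hochberg), so it did not pass. Groups that did not overlap were found in 1 of the 29 members and in 2.53% of all tested genes. The gene is scarce, at 34 to 38 counts per TG library and 13 to 28 per WT library, and without WT replicate 3, its lowest library, the log2 fold change was 0.52.

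Among the HIF alpha subunits the 3 genes spanned very different levels, and none separated the groups. Epas1, which encodes the endothelial-rich HIF-2 alpha, was the most abundant at 131 ± 8 FPKM in TG hearts and 128 ± 19 in WT hearts (SD, n = 4 each). Hif1a, the broadly expressed subunit, stood at 10.6 ± 3.0 and 10.2 ± 3.1 FPKM. Hif3a, whose splice forms can restrain the other subunits, stood at 0.35 ± 0.10 and 0.34 ± 0.11 FPKM. Within each library Epas1 exceeded Hif1a 9.68 to 17.3 times by FPKM.

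By CPM, Epas1 stood at 687, 682, 784 and 716 in TG replicates 1 to 4 and at 635, 634, 698 and 798 in WT replicates 1 to 4. The highest library was a WT one, and the ranges overlapped. Epas1 had a log2 fold change of 0.05 (95% interval -0.18 to 0.29). Hif1a stood at 34.4, 55.7, 45.0 and 62.7 CPM in TG hearts and at 40.7, 32.7, 53.8 and 60.8 in WT hearts. In both groups the shallower libraries were the higher ones. Hif1a had a log2 fold change of 0.07 (-0.38 to 0.53) and Hif3a one of 0.07 (-0.60 to 0.74). Hif3a rested on 10 to 26 counts per library.

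The genes that sense oxygen and remove the alpha subunits were close to equal in the groups. Egln1, the main prolyl hydroxylase under normal oxygen, was the most even of the 31 genes across libraries, at 586, 595, 589.6 and 533 CPM in TG hearts and 566, 559, 597 and 568 CPM in WT hearts. Its highest library exceeded its lowest 1.12 times, and its log2 fold change was 0.01 (95% interval -0.19 to 0.21). Egln3, a hydroxylase that HIF itself induces, varied more, at 139.6, 165, 116.5 and 163 CPM in TG hearts and 84.5, 134, 144 and 212 CPM in WT hearts. The lowest and highest values were both from WT libraries, replicates 1 and 4. The fitted log2 fold change of Egln3 was 0.03 (-0.45 to 0.50). Egln2, a further prolyl hydroxylase, stood at 84.7, 75.8, 79.4 and 64.6 CPM in TG hearts and 88.2, 89.5, 69.8 and 69.5 in WT hearts, with a log2 fold change of -0.06 (-0.33 to 0.21). By FPKM, Egln1 exceeded Egln3 2.04 to 5.11 times and Egln2 3.74 to 5.12 times in the same library.

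Vhl, the von Hippel-Lindau subunit that recognises hydroxylated HIF alpha, stood at 13.9 ± 1.0 CPM in TG hearts and 15.8 ± 2.4 in WT hearts, and Hif1an, the asparagine hydroxylase that blocks coactivator binding, at 80.2 ± 8.7 and 80.0 ± 4.7 (SD, n = 4 each). Their log2 fold changes were -0.19 (95% interval -0.50 to 0.13) and 0.00 (-0.23 to 0.23).

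**Figure D2:**
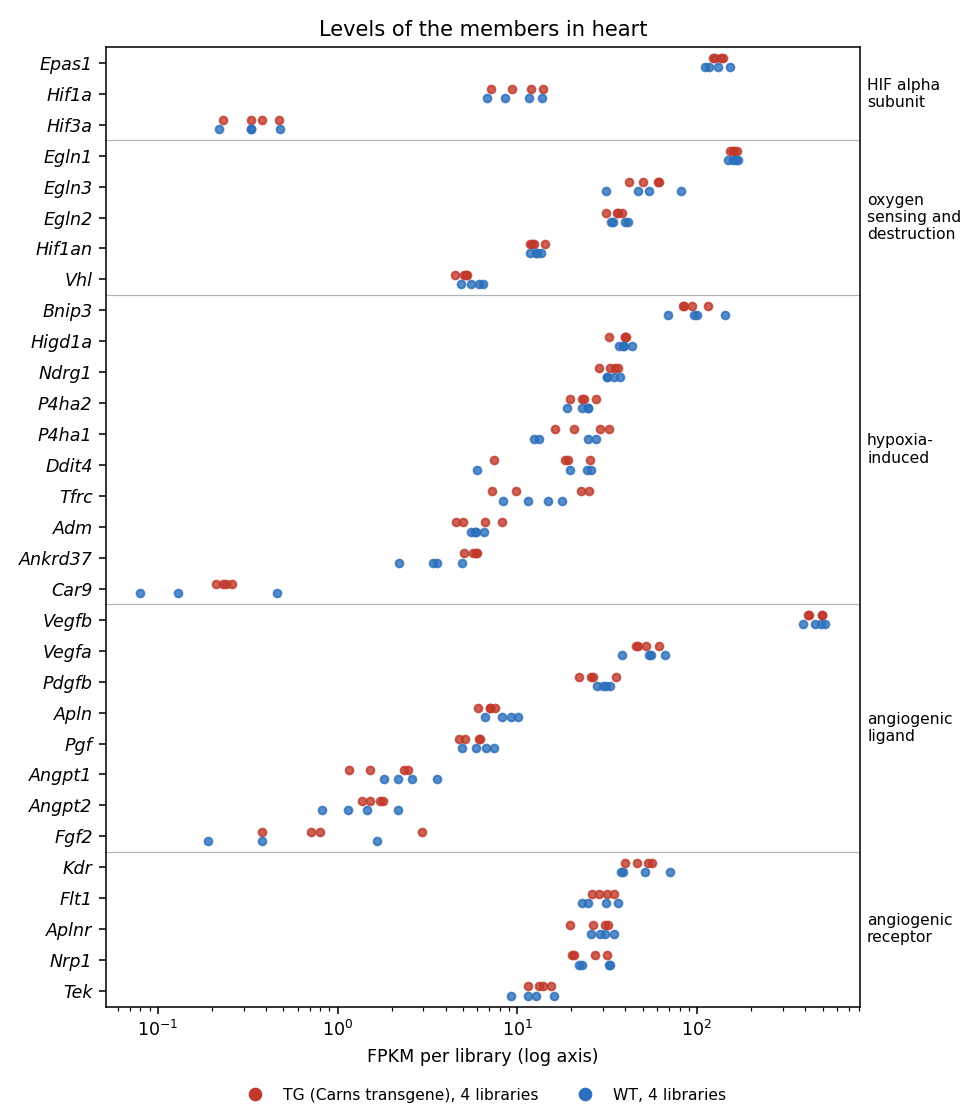
FPKM of all 31 genes in each library on a log axis, TG in red and WT in blue, grouped by role and ordered by mean level within a role; values of 0 (Car9 and Fgf2 in 1 WT library each) are not drawn. Vegfb, Egln1 and Epas1 lie at or above 100 FPKM in every library, and Hif3a and Car9 lie below 1.

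The hypoxia-induced genes, which are read as the output of the pathway, did not shift together. Of 9 tested members 5 had a positive and 4 a negative log2 fold change, and besides Ankrd37 the ranges of the groups overlapped in all 8. Bnip3, a mitochondrial protein that promotes mitophagy, was the most abundant of them at 94.1 ± 14.6 FPKM in TG hearts and 102 ± 31 in WT hearts. It stood at 151, 201, 153 and 159.7 CPM in TG hearts and 122, 177, 173 and 242 in WT hearts, with a log2 fold change of -0.11 (95% interval -0.49 to 0.28). As for Egln3, the lowest and the highest value came from WT replicates 1 and 4. Higd1a, a small mitochondrial survival protein, stood at 72.0 ± 8.6 and 74.4 ± 8.0 CPM, and Ndrg1, a stress-induced cytoplasmic protein, at 98.0 ± 12.5 and 99.2 ± 10.6. Adm, the vasodilator peptide adrenomedullin, stood at 8.43 ± 2.32 and 8.14 ± 0.63 CPM (SD, n = 4 each, TG first). For these 3 genes the log2 fold changes lay at -0.05, -0.02 and 0.05.

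P4ha1, the catalytic subunit of the enzyme that hydroxylates collagen prolines, had a higher mean in TG hearts but did not pass the test. It stood at 87.2, 118, 68.5 and 130.1 CPM in TG hearts and 49.7, 56.8, 111 and 97.5 CPM in WT hearts. The ranges overlapped, since the shallower WT libraries lay above TG replicates 1 and 3. The estimate for P4ha1 was a log2 fold change of 0.36 (95% interval -0.20 to 0.91). Its sister subunit P4ha2 stood at 54.0 ± 7.9 CPM in TG hearts and 52.3 ± 5.9 in WT hearts (SD, n = 4 each), a log2 fold change of 0.05.

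The most uneven of the tested members were Ddit4 and Tfrc. Ddit4, an inhibitor of the growth kinase mTOR complex that also responds to glucocorticoids and feeding, stood at 43.8, 30.8, 33.1 and 12.2 CPM in TG hearts and at 41.2, 45.7, 32.5 and 9.63 CPM in WT hearts. In each group replicate 4 was far below the others, and the highest library exceeded the lowest 4.75 times. Ddit4 had a log2 fold change of -0.11, with an interval from -0.98 to 0.77. Tfrc, the transferrin receptor that takes up iron, stood at 37.1, 125, 50.2 and 110.5 CPM in TG hearts and 74.1, 43.7, 87.2 and 54.9 CPM in WT hearts. Its TG values formed a low pair and a high pair, and all 4 WT values lay between the lowest and highest of these. The log2 fold change of Tfrc was 0.31 (-0.42 to 1.04), and without TG replicate 2 it was 0.02.

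Car9, a membrane carbonic anhydrase that is a classical hypoxia marker in tumours, was near the limit of detection. It had 3 or 4 counts in each TG library and 0, 2, 1 and 6 counts in WT replicates 1 to 4, where 3 counts correspond to 0.38 to 0.48 counts per 1000000. It was not tested, and no difference was detectable at this depth.

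Angiogenic ligands ranged over more than 100-fold by FPKM, and 6 of 7 tested ligands had a negative log2 fold change, none past the threshold. Of all tested genes 50.5% had a negative value. The most abundant ligand was Vegfb, a growth factor of the vascular endothelial family linked to coronary vessels and lipid handling in muscle, at 647, 521, 642 and 515 CPM in TG hearts and 654, 651, 566 and 473 in WT hearts. In each group the deeper libraries were the higher pair. Vegfb had a log2 fold change of -0.01 (95% interval -0.29 to 0.27). Vegfa, the principal hypoxia-induced vessel growth factor, stood at 159.7, 176, 166 and 205 CPM in TG hearts and 189, 141, 222 and 178 CPM in WT hearts. The groups overlapped widely, with a log2 fold change of -0.04 (-0.34 to 0.25). Its value sums 10 listed transcripts, so splice forms were not separated. By FPKM, Vegfb exceeded Vegfa 6.79 to 12.8 times in the same library.

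Apln, the apelin peptide that acts through Aplnr, stood at 23.2, 19.0, 24.5 and 21.8 CPM in TG hearts and at 29.5, 27.4, 31.7 and 20.2 CPM in WT hearts. The first 3 WT libraries lay above all TG libraries and WT replicate 4 among them. The log2 fold change of Apln was -0.30 (SE 0.15, 95% interval -0.63 to 0.03), with an adjusted p of 0.9996 (edgeR, Benjamini-Hochberg).

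The angiopoietins had fitted differences of opposite sign, neither past the threshold. Angpt1, which activates the Tek receptor and steadies vessels, stood at 5.22, 10.2, 6.81 and 10.5 CPM in TG hearts and 9.53, 8.32, 11.1 and 14.98 CPM in WT hearts. Angpt2, which can oppose it, stood at 5.61, 6.19, 6.67 and 4.75 CPM in TG hearts and 4.12, 3.14, 7.67 and 5.04 in WT hearts. The ranges of the groups overlapped for each gene. Their log2 fold changes were -0.43 (95% interval -0.97 to 0.11) and 0.23 (-0.33 to 0.79).

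The ratio of Angpt2 to Angpt1 by FPKM was 1.31, 0.74, 1.18 and 0.55 in TG hearts and 0.52, 0.45, 0.84 and 0.41 in WT hearts. On the log2 scale it averaged -0.16 ± 0.58 in TG hearts and -0.91 ± 0.46 in WT hearts (SD, n = 4 each). This was the ratio with the smallest p of 10 ratios between members that were compared (difference 0.74, two-sided exact permutation p = 0.114, adjusted p = 1, where 4 against 4 cannot go below 0.0286). After adjustment over the 10 ratios, 1 ratio alone at that smallest p would still not pass. The other 9 were Epas1 and Hif3a each to Hif1a, Egln3 and Egln2 each to Egln1, Vegfb and Pgf each to Vegfa, Flt1 to Kdr, Apln to Aplnr and P4ha2 to P4ha1. For these the difference of TG from WT lay between -0.34 (P4ha2 to P4ha1) and 0.08 (Egln3 to Egln1), with exact permutation p from 0.343 to 1.

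The remaining ligands were Pdgfb, which recruits mural cells, at 82.8 ± 18.9 CPM in TG hearts and 90.4 ± 6.6 in WT hearts, and Pgf, placental growth factor, a ligand of Flt1, at 8.20 ± 1.30 and 8.85 ± 1.80 (SD, n = 4 each). Their log2 fold changes were -0.13 (95% interval -0.44 to 0.19) and -0.11 (-0.53 to 0.31). Fgf2, a basic fibroblast growth factor, had 2, 3, 4 and 13 counts in TG hearts and 2, 1, 0 and 7 in WT hearts. It was too scarce to be tested.

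No receptor of vessel lining cells passed the test, and 5 of 5 had a 95% interval over all 8 libraries that excluded a 1.5-fold change. Within the depth classes Kdr, Flt1 and Aplnr took opposite fitted signs, while Nrp1 and Tek kept theirs. For Kdr the log2 fold change was 0.38 in the deeper and -0.32 in the shallower libraries, and for Flt1 0.34 and -0.15. In bulk tissue fewer endothelial cells and less receptor RNA per cell cannot be told apart. Kdr, the main signalling receptor for Vegfa, was the most abundant receptor by FPKM, at 49.0 ± 7.5 in TG hearts and 49.7 ± 15.1 in WT hearts (SD, n = 4 each). It stood at 267, 218, 303 and 305 CPM in TG hearts and 211, 226, 281 and 375 CPM in WT hearts, with a log2 fold change of 0.00 (95% interval -0.37 to 0.38). Both the lowest and the highest library were WT ones. Flt1, a receptor that also sequesters Vegfa, Vegfb and Pgf, stood at 193 ± 22 and 183 ± 33 CPM, and Nrp1, a coreceptor, at 150.0 ± 30.4 and 164 ± 30. Tek, the angiopoietin receptor, stood at 63.7 ± 6.2 and 58.0 ± 11.2 CPM, and the apelin receptor Aplnr at 99.2 ± 20.2 and 108 ± 10 (SD, n = 4 each, TG first). The log2 fold changes of these 4 ran from -0.13 (Nrp1) to 0.14 (Tek). WT replicate 4 had the highest value of Kdr, Flt1, Tek, Aplnr and Epas1, and it also had the highest summed endothelial marker level, 572 FPKM against 433 to 534 in the other 7 libraries. The same library was highest in summed mural cell markers (582 FPKM against 314 to 407) and lowest in summed heart muscle markers (40704 FPKM). The part of endothelial or other cell content in the receptor values was not tested.

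Several members split by the depth class of the library. The 4 shallower libraries lay above the 4 deeper ones for Hif1a, Egln3, P4ha1, Angpt1 and Nrp1 and below them for Egln2, Ddit4 and Vegfb. These 8 are 27.6% of the 29 members, and a similar 29.9% of all tested genes split in this way. Among all tested genes 16.0% were higher in the shallower and 13.9% higher in the deeper libraries. Mean CPM in the shallower class was 1.74 times that in the deeper class for P4ha1, 1.57 times for Angpt1, 1.52 times for Hif1a and 0.52 times for Ddit4. Fibroblast markers (Col1a1, Col1a2, Pdgfra, Dcn and Tcf21), all 5 of them listed above 0, also split this way, with summed levels of 277 to 293 FPKM in the deeper and 351 to 499 in the shallower libraries. So did the 8 mural cell markers (Pdgfrb, Rgs5, Kcnj8, Abcc9, Cspg4, Acta2, Myh11 and Notch3), at 314 to 355 FPKM in the deeper and 381 to 582 in the shallower libraries. The summed endothelial markers overlapped between the classes (478 to 534 FPKM deeper, 433 to 572 shallower). So did those of heart muscle, macrophages, atrial muscle, fat, red blood cells and immediate early genes. The part of cell content in the splits of the members was not tested.

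**Figure D3:**
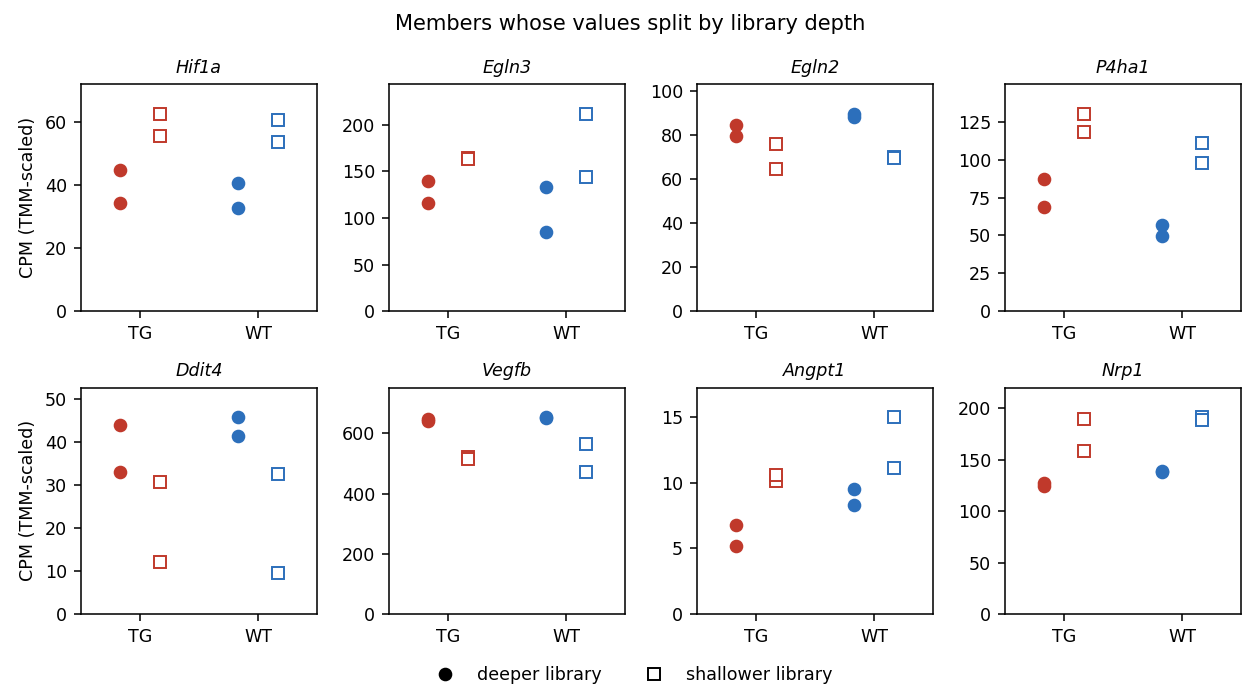
CPM of the 8 members whose deeper (filled circles) and shallower (open squares) libraries do not overlap, for TG in red and WT in blue, on linear axes from 0. In each panel the 4 squares lie on 1 side of the 4 circles in both groups.

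Each depth class holds 2 TG and 2 WT libraries, so TG and WT were also compared within a class. Unadjusted p-values under 0.05 (edgeR) were found for 8 of 29 members in the deeper libraries, a larger share than the 9.15% of all genes. That comparison rests on 2 libraries per group, and members can vary together, so the 8 are not separate results. The excess was not tested. These 8 were Angpt1, Angpt2, Ankrd37, Epas1, Flt1, Kdr, P4ha1 and Tfrc. In the shallower libraries 2 of 29 members had one (Pdgfb and Tfrc), against 5.55% of all genes. Only Tfrc was in both, and its signs were opposite. With the depth class as a covariate 4 of 29 members had one (Angpt1, Ankrd37, Apln and P4ha1), against 8.97% of all genes. For Ankrd37, P4ha1 and Angpt1 the groups did not overlap within the deeper or within the shallower libraries, in the same direction. That is 3 of 29 members (10.3%), against 8.93% of all tested genes. P4ha1 was higher in TG with a log2 fold change of 0.55 in the deeper and 0.25 in the shallower libraries (edgeR Benjamini-Hochberg adjusted p = 0.0936 and 0.903). With the depth class as a covariate its log2 fold change was 0.39 and the adjusted p was 0.213 by the same test. Angpt1 was lower in TG by both, at -0.57 and -0.33, and Ankrd37 higher at 0.62 and 0.77. After adjustment 0 members passed in either class or with the covariate, where 0.463% of all genes did in the deeper libraries, 0.0314% in the shallower ones and 0.221% with the covariate.

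Other members took opposite fitted signs in the depth classes, although 0 of 29 had groups that did not overlap in opposite directions (4.74% of all tested genes). Kdr had a log2 fold change of 0.38 in the deeper and -0.32 in the shallower libraries, and Tfrc one of -0.44 and 0.73. Flt1 stood at 0.34 and -0.15, and Angpt2 at 0.75 and -0.22. The differences between the classes were not tested.

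Genes around the members gave a similar picture. Of 78 tested genes in 3 further lists (12 HIF partners and parts of the destruction complex, 37 other hypoxia-induced genes and 29 other angiogenic genes), 0 passed the threshold in either direction (edgeR, Benjamini-Hochberg), where 0.0158% of all tested genes did. An unadjusted p under 0.05 was found for 1 of the 78 (1.28%), against 3.49% of all tested genes. DESeq2 called 0 of them, against 0.0882% of all genes. The medians of the 3 lists were 0.03, 0.03 and -0.03 on the log2 scale.

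That gene was Cited2, a hypoxia-induced protein that competes with HIF alpha for the coactivators Ep300 and Crebbp. Cited2 stood at 66.8, 67.6, 73.4 and 73.2 CPM in TG hearts and 52.0, 49.9, 62.3 and 52.4 CPM in WT hearts. All 4 TG libraries lay above all 4 WT libraries. Its log2 fold change was 0.38 (SE 0.11, 95% interval 0.14 to 0.61, unadjusted p = 0.0040), and its edgeR Benjamini-Hochberg adjusted p was 0.883, so it did not pass. Over the other settings tried the log2 fold change of Cited2 lay between 0.30 and 0.46, and its adjusted p between 0.118 and 1.

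**Figure D4:**
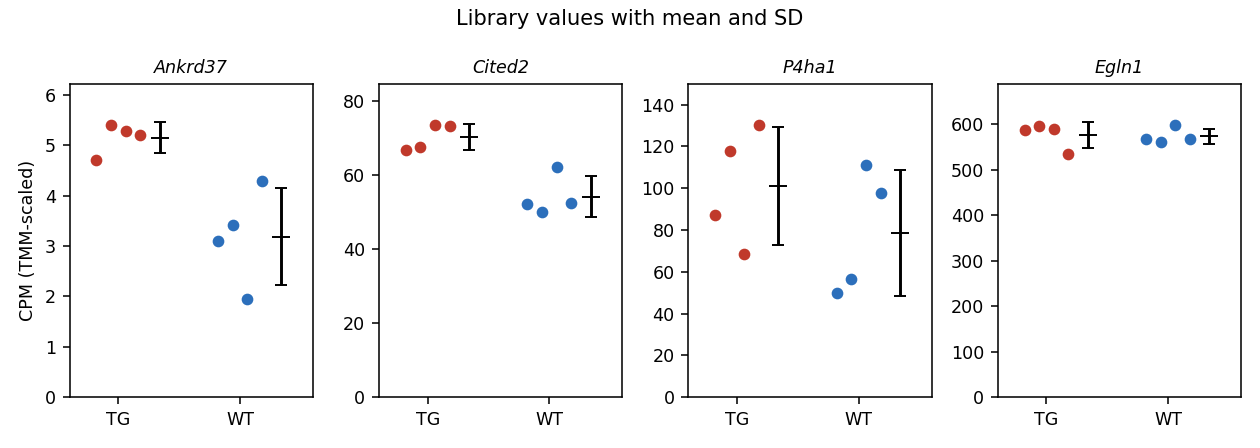
CPM of Ankrd37, Cited2, P4ha1 and Egln1 in each TG (red) and WT (blue) library, replicates 1 to 4 from left to right, with the group mean and SD as a black bar on linear axes from 0. TG lies above WT without overlap for Ankrd37 and Cited2, overlaps it for P4ha1, and matches it closely for Egln1.

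Among the HIF partners, the coactivator Crebbp stood at 52.7 ± 6.8 CPM in TG hearts and 44.0 ± 4.6 in WT hearts, the ubiquitin ligase Siah2, which acts on the Egln enzymes, at 11.8 ± 2.0 and 15.4 ± 4.4, and the ring protein Rbx1 of the Vhl complex at 67.9 ± 3.3 and 75.4 ± 7.5 (SD, n = 4 each). The most abundant of that list by FPKM was the scaffold Rack1, at 397 ± 64 in TG hearts and 463 ± 73 in WT hearts. Among other hypoxia-induced genes the glycolytic regulator Pfkfb3 stood at 18.8, 43.3, 15.7 and 12.3 CPM in TG hearts and at 14.9 ± 0.6 in WT hearts (SD, n = 4). Its log2 fold change of 0.59 was 0.07 without TG replicate 2, the library with high fat marker genes. The glycolytic enzyme Eno1 likewise went from 0.26 to 0.08 without that library. Ak4, a mitochondrial adenylate kinase, stood at 54.0 ± 3.3 and 46.0 ± 7.6 CPM and Hmox1, heme oxygenase, at 17.95 ± 2.00 and 21.0 ± 1.7 (SD, n = 4 each, TG first). Gapdh was the most abundant, at 6438 ± 419 and 6352 ± 258 FPKM.

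In the list of other angiogenic genes the lymphatic growth factor Vegfd stood at 6.55 ± 0.96 CPM in TG hearts and 4.69 ± 1.41 in WT hearts, the adrenomedullin receptor partner Ramp3 at 9.40 ± 1.06 and 11.5 ± 1.4, and the Notch ligand Dll4 at 40.5 ± 8.3 and 45.8 ± 3.9. Fgfr1, a receptor for fibroblast growth factors, stood at 80.1 ± 6.4 and 73.9 ± 2.8 CPM (SD, n = 4 each, TG first). The endothelial coreceptor Eng was the most abundant, at 180.4 ± 21.7 FPKM in TG hearts and 189 ± 20 in WT hearts. None of these 5 passed.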

How the data were processed

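The authors deposited 1 table of expected counts and FPKM per library, per the file headers. The expected counts are estimates that were not normalized, and the FPKM values are the authors' own. Bowtie2 and mm8 are listed, with no role, in the submitters' processing notes. The counting program and the use of strand are not given in the sources used here. A gene missing from a table was taken as 0.

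Gene numbers were matched to NCBI symbols (GRCm38.p6, 18174 of 18215). Promoter windows are from RefSeq of that build (25 of 31 members).

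Rounded expected counts passing filterByExpr (minimum count 10, total 15; 12670 genes) were tested with edgeR 4.0.16 in R 4.3.3 (quasi-likelihood, TMM, group alone, two-sided, Benjamini-Hochberg, threshold 0.05). The SE came from the F statistic. On simulated TG against WT counts (12562 genes) 30.9% of 1.5-fold and 79.3% of 2-fold increases were recovered. The simulated tables held far more changed genes than were called here, which eases the adjustment, and no split by depth class. These shares may therefore overstate what the fit can recover in these data. DESeq2 1.42.0 and limma 3.58.1 were among 21 other settings. Limits from counts cover counting error only, because amplified reads are not independent molecules.

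Members and lists were chosen with earlier results of these data known. Values per library are given for members with an unadjusted p under 0.05 or groups that did not overlap, the HIF alpha subunits, the prolyl hydroxylases, the most abundant ligand and receptor, and further members chosen after their values were seen. In each further list the 4 genes of smallest p and the most abundant gene are named. Angptl4, Arntl and the overlap between depth classes were chosen after the values were seen.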

Additional observations from a re-analysis of the deposited data

Results flagged for a closer look

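Each of the following values lay farther from its group of 4 libraries than 0.829 of the group's range. Of 130 groups examined 4 held such a value, and about 1 in 20 groups does so without any difference, so the number is not high. Egln1 stood at 533 CPM in TG replicate 4, below the 586 to 595 CPM of the other TG libraries. P4ha2 stood at 43.5 CPM in WT replicate 1, below 54.6 to 55.8 CPM in the other WT libraries. The FPKM ratio of Pgf to Vegfa was 0.135 in TG replicate 1 and between 0.0982 and 0.101 in the other TG libraries. The fat marker genes summed to 735 FPKM in TG replicate 2, against 28.1 to 48.97 in the other TG libraries.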

How the results depend on the processing

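Under 21 other settings no member passed the threshold, and the smallest adjusted p of a member was 0.0936 (P4ha1, deeper libraries only). Ankrd37, Angpt1, Apln, Nrp1, P4ha1, Pgf, Tek and Vhl kept their sign under every setting that gave a value, while the other 21 members, mostly near 0, changed it under at least 1. Ankrd37 ran from 0.52 to 0.85 and was not tested with a mean of at least 5 CPM. The median of the members was 0.00, and it was 0.055 in the deeper and -0.074 in the shallower libraries. With 1 library left out it lay between -0.052 and 0.029, and that of the HIF partners between -0.042 and 0.10. The calls over all genes numbered 2, and they numbered 16 with DESeq2, 4 without the filter, 1 by limma with an FPKM pseudocount of 1 and 1 with one of 0.1, 28 with the depth class as a covariate, 59 in the deeper and 4 in the shallower libraries, 0 with Carns1 left out (441 at an unadjusted p under 0.05), and 1 to 3 with 1 library left out. The other hypoxia-induced genes had 1 call in the deeper libraries. The causes were not tested. Deviations of same-numbered libraries from their group means had r between -0.28 and 0.40. The sign followed the depth class. Between a TG and a WT library r was 0.20 to 0.46 within a class and -0.44 to -0.18 across classes. So the check cannot tell whether the replicate numbers are pairs, and they were not taken as pairs. A fit with the replicate block called 1 gene and 0 members. With 1 library left out, as with all libraries, a ratio alone at the smallest possible exact p would not pass after adjustment over the ratios. The adjusted p-values of the ratios there therefore say nothing of stability. WT replicate 3 (0.84) was the only WT library with an Angpt2 to Angpt1 ratio inside the TG range of 0.55 to 1.31. The other WT libraries lay at 0.41 to 0.52, so leaving it out removes the overlap by construction. The log2 difference was then 0.96, and the lack of overlap there is not a result. Depth limits the scarce genes Car9, Fgf2, Hif3a and Ankrd37.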

Other observations

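Angptl4, a hypoxia- and fasting-induced inhibitor of lipoprotein lipase, was the 1 gene of the 37 other hypoxia-induced genes with a call in any setting. It stood at 16.8, 21.3, 14.0 and 14.4 CPM in TG hearts and at 3.09, 8.46, 14.6 and 21.1 CPM in WT hearts. The 2 deeper WT libraries were low, and the shallower WT libraries matched TG. Its log2 fold change was 1.43 within the deeper libraries (edgeR Benjamini-Hochberg adjusted p = 0.0433, where 0.463% of all genes passed) and -0.00 within the shallower ones. The difference between the classes was not tested, and over all 8 libraries the log2 fold change was 0.51 (SE 0.39) and did not pass.

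Ddit4 and the clock gene Arntl, which resembles Arnt, had opposite extremes in the replicate 4 library of each group. Arntl was highest in WT replicate 4 (12.1 CPM) and TG replicate 4 (8.47 CPM), the libraries in which Ddit4 was lowest (9.63 and 12.2 CPM). The pattern did not extend to all libraries: Arntl was lowest in WT replicate 1 (1.42 CPM), while Ddit4 was highest in WT replicate 2 (45.7 CPM), and in TG replicate 2 Ddit4 stood at 30.8 CPM and Arntl at 5.08 CPM, both below the median of their 8 libraries. The log2 fold change of Arntl between the groups was 0.03 (SE 0.44), with both its lowest and its highest library in WT.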
